A study of Mus musculus with 21 samples.

Results

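The Nfil3 locus was examined in mouse bone marrow progenitors as the stretch of chromosome 13 from 52980000 to 53200000 (build mm9), a window of 220 kb that holds the gene and both flanks. All peaks of the 4 peak lists that overlap the window were taken, which gave 55 of 215239 peaks. The 3 lists of open chromatin contributed 50 peaks, which merged into 31 of 102384 DNase I hypersensitive site (DHS) regions wherever peaks shared at least 1 bp. The list of TCF1 binding contributed 5 of 6679 peaks. Nfil3 lies on the minus strand at about 53062000 to 53077000, so its upstream side has the higher coordinates. Distances are given from 53077000, the approximate 5′ end, to the centre of a region or to the summit of a TCF1 peak.

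Accessible DNA was mapped by DNase-seq, where sites that the nuclease cuts often are called as peaks. The 3 successive stages were sorted as lineage-negative Kit+ 2B4+ bone marrow cells. ALP, the all-lymphoid progenitors, lacked a4b7 and had high Flt3 and IL-7Ra. EILP, the early innate lymphoid progenitors, carried a4b7 and the Tcf7 reporter without Thy1. ILCP, the innate lymphoid cell precursors, carried a4b7, the Tcf7 reporter, Thy1 and IL-7Ra. There were 3 DNase-seq libraries per stage, each of 300 cells with 0.3 units of enzyme and a 5 minute digestion. TCF1 binding was mapped in EILP cells by CUT&RUN, where nuclease tethered to an antibody releases the bound DNA, in 6 libraries of 500 cells from 4 library identifiers, with 4 IgG libraries. Libraries that share an identifier are technical repeats. The cells were fixed with formaldehyde, and the labels also call the method small-cell ChIC-seq. All mice were C57BL/6 with a Tcf7 reporter allele. The genotype label was Tcf7EGFP/+ for ALP and ILCP and Tcf7EGFPnull/+ for EILP, while the pooled files of all stages are named WT. As labelled, the EILP stage and its genotype cannot be told apart. A further 2 CUT&RUN libraries have TCF1 in the title and the IgG track in the description; they were put in no group, yet the tag file used as TCF1 control includes their identifier. The age of the mice was not given in the sources used here.

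Each list was called on 1 pool of tags. Values therefore carry no replicate error, no test between stages was made, and intervals cover counting error only. The DHS pools held 11236009 to 12681410 filtered tags and the TCF1 pool 2418839. The labelled cell types were not checked against marker genes, because no gene annotation of mm9 was used and Nfil3 was the gene with a given position.

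Nfil3, also called E4BP4, is a basic leucine zipper transcription factor that binds D-box elements and mostly represses transcription. In mice it is needed early in the development of innate lymphoid cells and natural killer cells, where it acts upstream of regulators such as Id2 and Tox. TCF1, the HMG-box factor encoded by Tcf7, is a second early regulator of the same lineage and marks the EILP and ILCP stages. In the RefSeq gene order of GRCm38.p6 the lncRNA gene Gm40950 and then Auh, which encodes an RNA-binding enoyl-CoA hydratase, follow Nfil3 on its downstream side. On its upstream side come the lncRNA genes Gm33424 and Gm33519 and then Ror2, a receptor for Wnt ligands. Positions of these neighbours on mm9 were not used here, so no DHS is assigned to them.

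The proximal promoter is shown because the data hold DHS close to the 5′ end of the gene at all 3 stages. These are the 250 bases before the annotated start in RefSeq (GRCm38.p6, chr13:52981040-52981289, minus strand), with CpG dinucleotides in capitals:
Nfil3: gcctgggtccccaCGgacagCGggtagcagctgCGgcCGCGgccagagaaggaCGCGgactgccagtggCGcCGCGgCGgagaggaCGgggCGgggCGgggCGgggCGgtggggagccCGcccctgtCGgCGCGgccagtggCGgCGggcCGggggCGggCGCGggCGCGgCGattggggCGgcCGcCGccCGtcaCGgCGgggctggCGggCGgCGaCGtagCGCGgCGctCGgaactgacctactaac
The sequence was 81.6% G or C, against a median of 52.4% over 32851 promoters of the same length. It held 43 CpG dinucleotides, against a median of 6, and 99.3% of the promoters held fewer. On both strands it had no match to the TCF/LEF motifs CTTTGAT and CTTTGAA, which 3.21% and 4.46% of all promoters held. It also had no match to the D-box motifs TTATGTAA and TTACGTAA (0.819% and 0.113% of promoters), to the GATA motif AGATAA (9.99%) or to the RUNX motif TGTGGT (14.0%). The ETS core GGAA was found 1 time, as in 93.4% of promoters at least once. Its first base lay 17 bases before the start. These coordinates belong to another build than the peaks, so which of the peaks covers this stretch was not determined.

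Peaks were dense around Nfil3. With 14 ALP peaks, 18 EILP peaks and 18 ILCP peaks, the window held more peaks of each list than 85.5%, 91.2% and 91.4% of 11656 windows of the same length tiled along the chromosomes. DHS covered 1.24%, 1.63% and 1.60% of its length in ALP, EILP and ILCP. The peaks were of ordinary height: their median summit had 13 tags at ALP, 11 at EILP and 12 at ILCP, against 14, 13 and 13 over the whole lists. Of the 31 regions, 14 lay on the downstream side, 3 in the gene interval and 14 on the upstream side. The longest stretches without a DHS of any stage were 40.6 kb on the upstream side, from 53119962 to 53160531, and 30.8 kb on the downstream side, from 53025219 to 53056025.

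**Figure D1:**
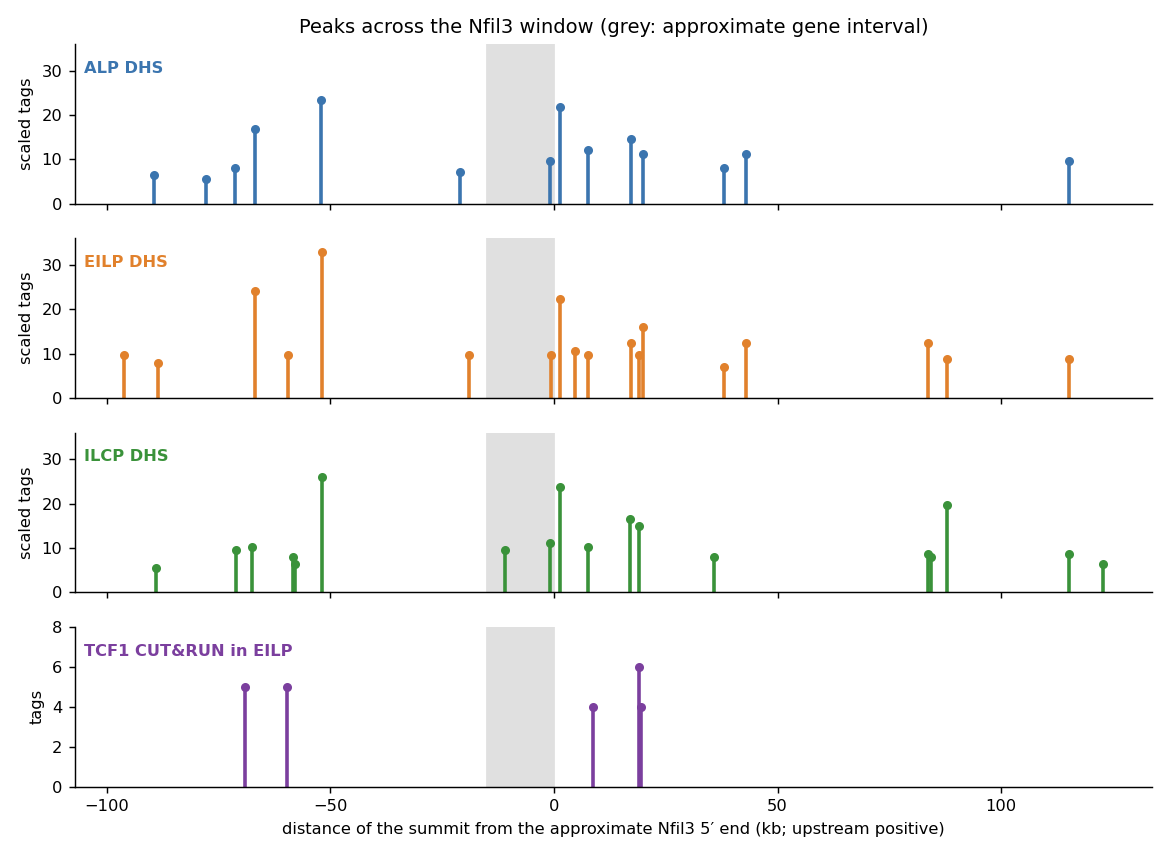
Peaks of the 4 lists across the Nfil3 window, as summit height (tags per 10000000 filtered tags for DHS, tags for TCF1) against distance of the summit from the approximate 5′ end (kb). The tall peaks 52.0 kb downstream and 1.4 kb upstream stand in all 3 stages, and the far upstream group at 83.6 to 87.8 kb has no ALP peak.

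In the full lists, few regions of the locus were open throughout. A peak in all 3 stages was found in 5 of 31 regions (16.1%, 95% Wilson interval 7.09 to 32.6), against 39.0% of all regions. A peak in a single stage was found in 17 (54.8%, 37.8 to 70.8), against 38.2% of all regions. Of these, 3 belonged to ALP (9.68% of the 31 regions, against 11.3% of all regions), 6 to EILP (19.4%, against 9.65%) and 8 to ILCP (25.8%, against 17.2%). With the peaks of a −log10 q of at least 5 alone, there were 21 regions. Of these, 2, 4 and 4 were of a single stage (ALP, EILP and ILCP), against 10.6%, 10.1% and 15.2% of all such regions. The gene with 50 kb flanks held 1, 4 and 4 among 18 regions. The larger count of ILCP over EILP was thus not seen under either setting. The remaining 9 regions had peaks in 2 stages (29.0%, 16.1 to 46.6, against 22.9% of all regions). There were 4 in ALP and EILP, 3 in EILP and ILCP, and 2 in ALP and ILCP, where all regions gave 9.52%, 9.27% and 4.09%. Single-stage regions were low, with 7 to 13 tags and a median of 10, while the peaks of regions open in all stages had 10 to 37 tags and a median of 18. Of the single-stage regions, 6 of 17 (35.3%) had a peak of another stage within 500 bp, against 18.3% of all single-stage regions. For those 6, a list without an overlapping peak still had one close by. With a −log10 q of at least 5 in all lists, 5 of 21 regions were open in all 3 stages, against 40.3% of all such regions. No interval was worked out for this share, so whether counting error covers the gap was not tested.

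**Figure D2:**
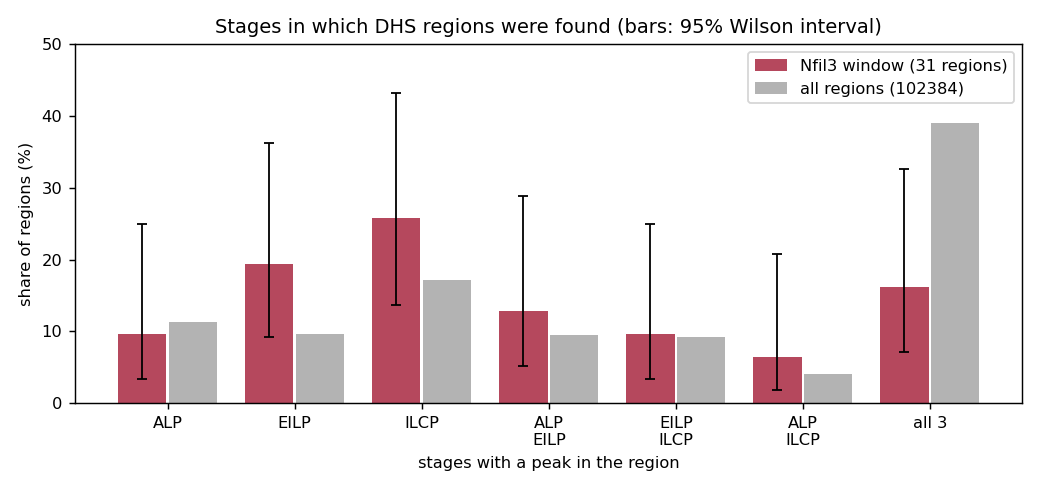
Share of DHS regions (%) by the stages in which they had a peak, for the 31 regions of the Nfil3 window (with 95% Wilson intervals, counting error only) and for all 102384 regions. Regions open in all 3 stages made up 16.1% in the window and 39.0% overall.

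The 5 regions open in all stages included the tallest of the locus. The region 52.0 kb downstream (53024694 to 53025219) had 29 tags at its summit in ALP, 37 in EILP and 33 in ILCP. Its fold enrichment, the authors' ratio of summit height to local background, stood at the 90.2, 95.9 and 90.3 percentile of the 3 lists. It was the region with the highest fold enrichment of the window at each stage, and the summits of the 3 lists lay within 39 bp of one another. Whether this region belongs to Nfil3 or to a neighbour on the downstream side, such as Auh, was not determined. The region 1.4 kb upstream (53078194 to 53078507), the tall DHS nearest to the 5′ end, had 27, 25 and 30 tags in ALP, EILP and ILCP. Its summits lay within 4 bp of one another. Per 10000000 filtered tags of each pool, called scaled tags from here on, these heights were 21.7, 22.2 and 23.7. The ratio was 1.02 for EILP over ALP (exact 95% interval 0.570 to 1.83) and 1.06 for ILCP over EILP (0.604 to 1.89).

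The other regions open throughout were lower and all lay upstream. The region 17.1 kb upstream (53093990 to 53094288) had 18, 14 and 21 tags in ALP, EILP and ILCP. The region 7.6 kb upstream (53084427 to 53084703) had 15, 11 and 13 tags. The region 115.2 kb upstream (53192122 to 53192299) had 12, 10 and 11 tags. For each of the 3, the counting interval of the ratio between successive stages held 1.

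Just inside the approximate 5′ end, at 1 and 0.6 kb, lay only low peaks. Because the position is approximate, which DHS lies at the start itself was not determined. A region reaching from 53075961 to 53076117, inside the gene interval, had a peak of 14 tags in ILCP and of 12 tags in ALP and none in EILP. The EILP list instead had a peak of 11 tags at 53076385 to 53076506, 268 bp further towards the 5′ end. These peaks stood on a high local background, 1.76 tags in ALP, 2.40 in EILP and 2.73 in ILCP, against list medians of 1.00, 0.940 and 1.00. Their fold enrichment was low, 4.71 in ALP, 3.53 in EILP and 4.02 in ILCP. Their −log10 q was 4.76 in ALP, 2.71 in EILP and 4.20 in ILCP, so under a limit of 5 none of them is listed and no difference in position between the stages is seen. Only 0.469% of EILP peaks had a lower fold enrichment than the EILP peak. The third region of the gene interval, at 53066050 to 53066258, was found in ILCP alone with 12 tags, and no peak of another stage lay within 8 kb of it. Within 5 kb of the gene there were also an EILP peak of 12 tags 4.8 kb upstream (53081756 to 53081855) and an EILP peak of 11 tags 19.0 kb downstream of the 5′ end (53057880 to 53058049).

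From the ALP to the EILP stage, 9 of the 18 regions open in EILP had no ALP peak (50.0%, 29.0 to 71.0), where 28.1% of all EILP regions were gained in this sense. Of the 14 ALP regions, 5 had no EILP peak (35.7%, 16.3 to 61.2), where 24.1% of all ALP regions were lost. Gained regions had a median of 11 tags in EILP, and retained ones 14. At the step from EILP to ILCP, 10 of 18 ILCP regions were gained (55.6%, 33.7 to 75.4), where the share over all regions was 30.6%. Likewise 10 of 18 EILP regions were lost (55.6%, 33.7 to 75.4), where the share over all regions was 28.4%. Between the outer stages, 11 of 18 ILCP regions had no ALP peak (38.1% of all ILCP regions) and 7 of 14 ALP regions had no ILCP peak (32.6% of all ALP regions). With a −log10 q of at least 5 in all lists, 6 of 14 EILP regions were gained over ALP (21.4 to 67.4%, against 28.5% of all such regions). Of the ALP regions, 3 of 11 were lost at EILP (9.75 to 56.6%, against 22.4%). Under that limit 5 of 12 ILCP regions were gained over EILP (19.3 to 68.0%, against 27.6%) and 7 of 14 EILP regions were lost (26.8 to 73.2%, against 28.6%), so each of these intervals held the share over all regions. When a peak up to 500 bp away also counted as present, 6 of 18 ILCP peaks were gained over EILP (16.3 to 56.3%, against 26.0% of all ILCP peaks). Regions were counted and not tested, and the window was picked with results of these data known.

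A missing peak is not a level of 0. The lowest peaks of each DHS list had 5 tags and 95% of peaks had at least 7, so a site below about that height is not listed. Where the local background is high, the height needed is greater. Just inside the approximate 5′ end, an EILP peak of 11 tags stood on a background of 2.40 tags. Only 0.469% of EILP peaks had a lower fold enrichment. In the window the losses at EILP concerned regions of low height. The ALP regions 89.5, 77.7, 20.9 and 71.2 kb downstream had 8, 7, 9 and 10 tags. The ALP peak 1 kb inside the approximate 5′ end had 12.

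The tallest region lost at a step lay 66.8 kb downstream (53009989 to 53010372). It had 27 tags in EILP and 21 in ALP, and no ILCP peak overlapped it. In EILP its fold enrichment was 10.2, the next below that of the region 52.0 kb downstream. Of the 9451 regions with at least 27 tags in EILP over the genome, 1.13% had no ILCP peak, and of the 16844 with at least 21 tags in ALP, 7.25%. The ILCP list held a peak of 13 tags at 53009506 to 53009640, with its edge 349 bp away on the gene-distal side and no ALP or EILP peak overlapping it. Under a rule that calls a peak absent when the other list has none within 500 bp, this region was not lost.

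**Figure D3:**
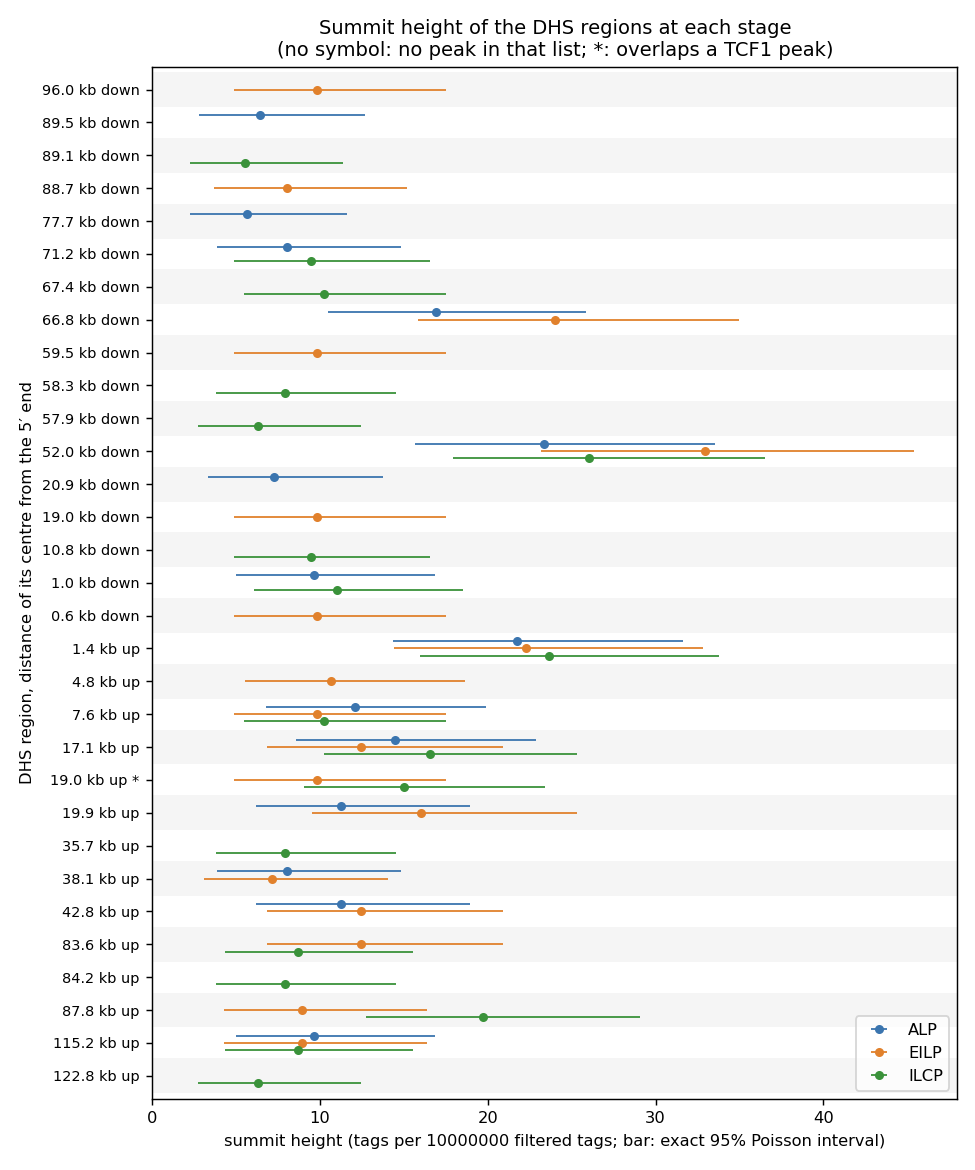
Summit height of each of the 31 DHS regions in ALP, EILP and ILCP (tags per 10000000 filtered tags, with exact 95% Poisson intervals), in order along the locus. The region 66.8 kb downstream has no ILCP symbol, the region 87.8 kb upstream has none for ALP and is higher in ILCP than in EILP, and the asterisk marks the region that overlaps a TCF1 peak.

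Upstream of the gene a group of 3 regions was found in the later stages alone. It spanned 4.43 kb from 53160531 to 53164964, inside a stretch of 72.2 kb without any ALP peak (53119962 to 53192132). The region 87.8 kb upstream (53164717 to 53164964) had 25 tags in ILCP and 10 in EILP. Among the 12928 regions with at least 25 tags in ILCP, 5.41% had no ALP peak, and of the 50015 with at least 10 tags in EILP, 8501 had none. The region 83.6 kb upstream (53160531 to 53160743) had 11 tags in ILCP and 14 in EILP, and the region 84.2 kb upstream had 10 tags in ILCP alone. Of all regions with at least 14 tags in EILP, 8.17% had no ALP peak, and of those with at least 10 tags in ILCP, 27.8%.

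In regions shared by successive stages, 1 of 17 ratios of scaled tags had a counting interval that left out 1, against 4.52% of 99000 ratios over all shared regions. From ALP to EILP, 0 of 9 shared regions were at least 2-fold higher in EILP and 0 were at least 2-fold lower; over all shared regions 4.40% were higher and 1.94% lower. The ratio of EILP over ALP had a median of 1.02 in the window and 1.11 over all shared regions, and it ranged from 0.811 to 1.42 in the window. From EILP to ILCP, 1 of 8 was at least 2-fold higher in ILCP and 0 were at least 2-fold lower, with 2.39% and 5.22% over all shared regions. The ratio of ILCP over EILP had a median of 1.06 in the window and 0.960 over all shared regions. The region that passed was the one 87.8 kb upstream, with 19.7 scaled tags in ILCP and 8.90 in EILP, a ratio of 2.22 (exact 95% interval 1.03 to 5.17, not adjusted for the number of regions). The region with the next highest ratio, 1.53 (0.692 to 3.56), lay 19.0 kb upstream. Between ALP and ILCP, 0 of 7 shared regions passed 2-fold in either direction, with 4.22% higher and 5.71% lower in ILCP over all shared regions.

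**Figure D4:**
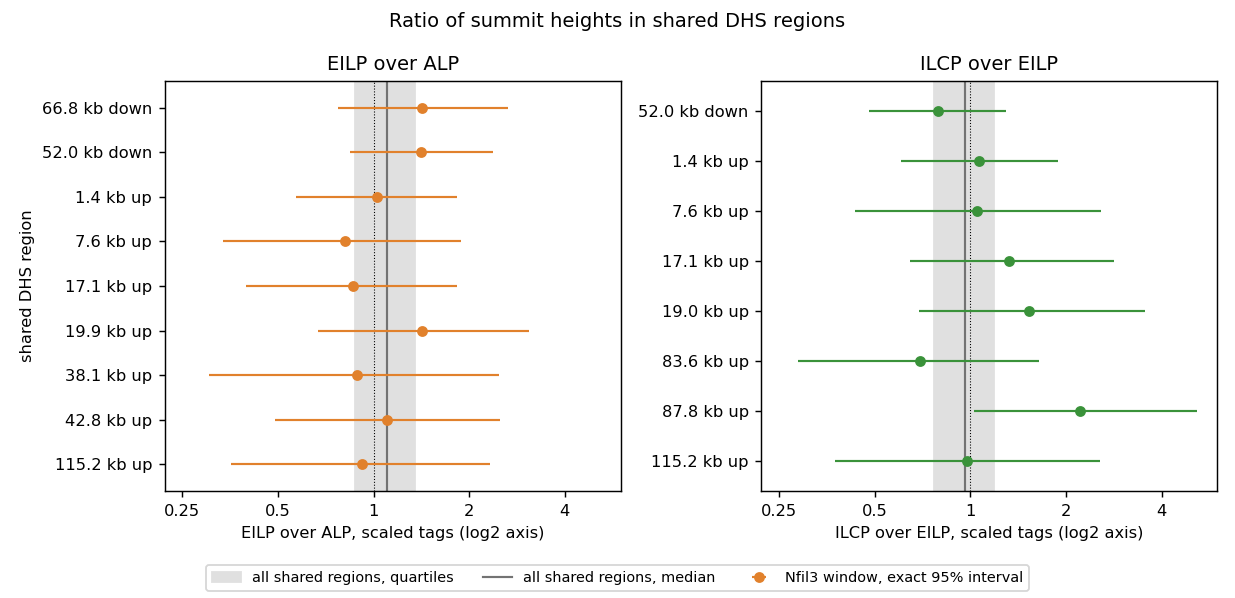
Ratio of scaled summit heights in DHS regions shared by successive stages (log2 axis), EILP over ALP on the left and ILCP over EILP on the right, with exact 95% intervals. The grey band and line give the quartiles and the median of all shared regions; of the 17 intervals, that of the region 87.8 kb upstream lies above 1, with a ratio of 2.22.

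TCF1 peaks were numerous in the window relative to its length. The 5 peaks exceeded the number in 98.1% of tiled windows of the same length, whose median was 0. All 5 were shallow, with 4 to 6 tags, where the median TCF1 peak of the list had 5. The control background under them, worked out from height and fold enrichment, had a median of 0.133 tags, against 0.166 over the list. If the 2 libraries of conflicting label in the control are TCF1 libraries, fold enrichment at bound sites is lowered; this was not tested.

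Of these 5 TCF1 peaks, 1 overlapped a DHS of EILP, where 57.5% of all TCF1 peaks did. The same peak was the one in ILCP DHS (58.2% of all TCF1 peaks) and the one in DHS of any stage (65.6%), and 0 lay in ALP DHS (51.2%). Within 500 bp of a DHS of any stage were 3 of the 5, where 80.0% of all TCF1 peaks were. With 5 peaks the interval of the share in EILP DHS is wide, 3.62% to 62.4%. Seen from the open chromatin, 1 of 31 regions overlapped a TCF1 peak, where 4.16% of all regions did; among EILP regions it was 1 of 18 (5.62% of all EILP regions), among ILCP regions 1 of 18 (5.47%) and among ALP regions 0 of 14 (5.26%).

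The peak in open chromatin was the tallest TCF1 peak of the locus. It lay 19.0 kb upstream (53095945 to 53096068) with 6 tags, a fold enrichment of 6.14 and a −log10 q of 4.96, and 82.4% of TCF1 peaks had a lower fold enrichment. Its summit was 25 bp from that of an EILP DHS of 11 tags and 13 bp from that of an ILCP DHS of 19 tags. This region (53095876 to 53096151) had no ALP peak, the nearest being 664 bp away. Over the genome 5.05% of the 9487 regions found in EILP and ILCP but not in ALP overlapped a TCF1 peak, and in the window 1 of 3 did.

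A neighbouring DHS had the opposite stages. The region 19.9 kb upstream (53096815 to 53097066) had 18 tags in EILP and 14 in ALP, and no ILCP peak overlapped it. In the full lists ALP thus had a peak at 19.9 kb alone, EILP at both 19.9 and 19.0 kb, and ILCP at 19.0 kb alone. The EILP peak at 19.0 kb was weak, with a −log10 q of 4.87 and a fold enrichment at the 16.9 percentile of its list, and under a limit of 5 it is not listed. A second TCF1 peak of 4 tags lay between these sites at 53096404 to 53096616, 222 bp from the EILP DHS at 19.9 kb and 253 bp from the ILCP DHS at 19.0 kb. Its fold enrichment was 4.38, below the TCF1 list median of 5.15.

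**Figure D5:**
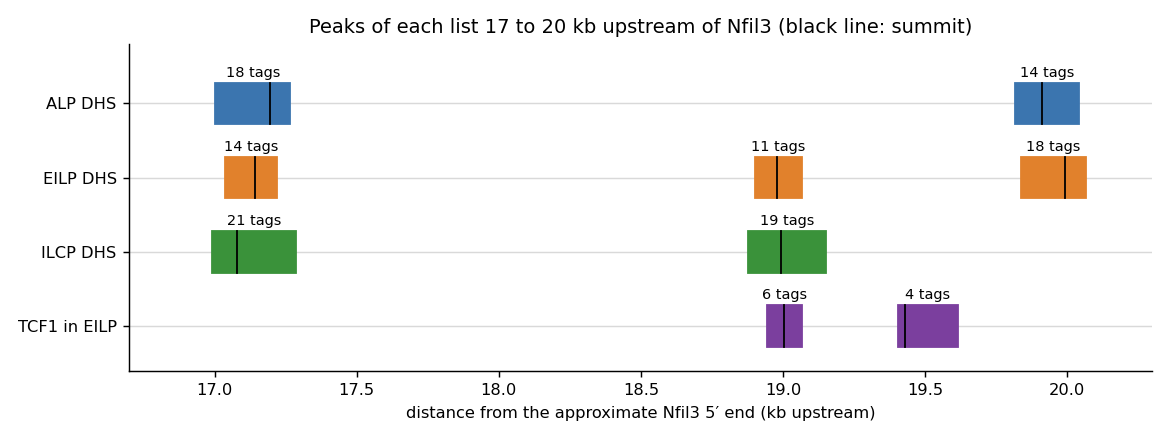
Peaks of the 4 lists 17 to 20 kb upstream of the approximate 5′ end of Nfil3, drawn to scale against distance (kb), with summit heights in tags and summits as black lines. ALP lacks the DHS at 19.0 kb where the TCF1 peak of 6 tags lies, and ILCP lacks the DHS at 19.9 kb.

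The other 3 TCF1 peaks lay outside called open chromatin. The peak 59.7 kb downstream (53017283 to 53017382) had 5 tags and a fold enrichment of 5.30, and its edge was 46 bp from an EILP DHS of 11 tags (53017428 to 53017624) that was found in EILP alone. The peak 69.1 kb downstream (53007873 to 53007973) had 5 tags and a fold enrichment of 5.31, with the nearest EILP DHS 2016 bp away. The peak 8.8 kb upstream (53085762 to 53085900) had 4 tags and a fold enrichment of 4.43, 1136 bp from the nearest EILP DHS. No TCF1 peak fell in the gene interval or within 5 kb of the 5′ end.

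The remaining regions were low and mostly of a single stage. On the upstream side, the regions 42.8 kb (53119660 to 53119962; 14 tags in EILP and 14 in ALP) and 38.1 kb away (53115018 to 53115140; 8 tags in EILP and 10 in ALP) had no ILCP peak, while an ILCP peak of 10 tags stood at 35.7 kb. A last ILCP peak of 8 tags lay 122.8 kb upstream. On the downstream side, between 88.7 and 89.5 kb, each stage had 1 peak of its own, with 8 tags in ALP, 9 in EILP and 7 in ILCP, and no pair of them overlapped. An EILP peak of 11 tags lay 96.0 kb downstream, and ILCP peaks of 10 and 8 tags lay 58.3 and 57.9 kb downstream. The region 71.2 kb downstream (53005701 to 53005879) had 12 tags in ILCP and 10 in ALP, with no EILP peak within 4 kb.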

How the data were processed

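Per the file headers, peaks come from MACS (version 2.1.1.20160309) run on pooled tags of 50 bp, with fragments of 100 bp, 1 tag per position and 0.05 as the q limit. DNase-seq tags were shifted by 50 bp and had no control, with a background window of 10 kb. TCF1 had a pooled control of 2919489 filtered tags and windows of 1 and 10 kb. Positions are on mm9, per the submitters' processing notes; the aligner is not given in the sources used here. The deposited lists give the summit signal (pileup in extended tags), fold enrichment and −log10 of p and q.

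From these, DHS peaks sharing 1 bp were merged. A gain or loss is a region with a peak in 1 list and none in the other. The height of a region is its tallest summit, scaled to 10000000 filtered tags; ratios have exact conditional 95% intervals, shares Wilson intervals. Fold enrichment was used within a list only. Local background was worked out as the height plus 1 over the fold enrichment, minus 1. Summit heights are maxima over positions, and pooling hides the spread between libraries. The counting was tested on simulated data. Python 3.11.15, pandas 2.3.3, scipy 1.17.1 and matplotlib 3.10.9 were used.

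The window, the motifs and the rule for named regions were chosen with earlier results of these data known. Named were all TCF1 peaks, regions in or within 5 kb of the gene, and shared regions past 2-fold. Also named were the regions with the highest fold enrichment in each DHS list and the highest of each pattern of stages. Shares among equally tall regions were added after the values were seen. No other ILC regulator genes were located, for want of an mm9 annotation.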

Additional observations from a re-analysis of the deposited data

How the results depend on the processing

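No paired analysis was possible because each list pools its libraries; for the same reason no library could be left out. Of 50 alternative values for the main counts, 40 stayed within 1.5 times and 10 moved. The causes of the moves were not tested. Some of the 40 could not have moved. The smallest gap between regions was 258 bp, so merging peaks within 100 bp changed nothing. No region held more than 1 peak of a list, so summed heights equalled the tallest summit. The number of TCF1 peaks does not depend on the rule for overlap with DHS. With the gene and 50 kb flanks alone, the window held 18 regions, 9 open in ALP and 10 in ILCP. When a peak counted as absent only with none in 500 bp, 6 regions were gained from EILP to ILCP. With a −log10 q of at least 5 in all lists, 3 of 11 were lost from ALP to EILP (9.75 to 56.6%, against 22.4% of all such regions). Gained from EILP to ILCP were 5 of 12 (19.3 to 68.0%, against 27.6%). With that limit on 1 list against the whole other list, the counts were 2 of 11 (5.14 to 47.7%, against 14.2%) and 4 of 12 (13.8 to 60.9%, against 19.4%). All of these intervals held the share over all regions. At a threshold of 1.5-fold, 2 shared regions were higher in ILCP than in EILP. With the median ratio of all shared regions set to 1, the median ratio of EILP over ALP in the window turned from above 1 to 0.926. Allowing 500 bp, 3 TCF1 peaks lay at EILP DHS. As counts, gains at EILP and losses at ILCP stayed within 1.5 times under every setting tried. As shares, with a −log10 q of at least 5 in all lists both intervals held the share over all regions. With that limit on 1 list against the whole other list, neither did (21.4 to 67.4%, against 19.1%, and 26.8 to 73.2%, against 19.6%). TCF1 depth, 2418839 tags, limits what its absence can show.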
